A study of Mus musculus with 2 samples.

Results

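The Rab, Arf and Arl small GTPases were followed in ribosome-protected fragments from neonatal mouse brain. Members were the genes with a protein-coding transcript whose symbol was Rab followed by digits, Arf followed by 1 digit or Arl followed by digits, with an optional letter for Rab and Arl, together with Sar1a, Sar1b and Ran. The rule itself uses no measured value, but it was chosen with earlier results of these data known. Interacting proteins such as the Arf GTPase-activating proteins and the Rab11 effectors were left out. The rule found 88 genes, namely 59 Rab, 6 Arf, 20 Arl and 2 Sar1 genes and Ran, among 45578 genes in all and 21874 genes with a protein-coding transcript. Together they had 303 of the 109463 annotated transcripts.

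Small GTPases are switches that bind GTP in the active and GDP in the inactive state. Guanine nucleotide exchange factors load them with GTP, GTPase-activating proteins end the signal, and in the active state they recruit effectors such as coats, tethers and motor adaptors. Rab proteins are attached to membranes by prenyl groups and mark the compartments of the secretory and endocytic routes, Arf and Sar1 proteins insert an amphipathic helix and start coat assembly, and Ran drives transport through the nuclear pore. In neurons these proteins serve synaptic vesicle release, axonal transport of lysosomes and endosomes, and the delivery of membrane to growing neurites.

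The tissue was brain of mice with the genotype Smn+/-; SMN2tg/0, that is with 1 working copy of mouse Smn and 1 human SMN2 transgene allele, on an FVB background and at postnatal day 5. These animals are the carriers of the Taiwanese line of spinal muscular atrophy, so both libraries share the reduced Smn dose and the transgene, and a wild-type brain was not analysed here. There were 2 biological replicates of 1 group and no treatment; whether each replicate came from a different animal is not given in the labels. RiboLace uses beads that carry a puromycin analogue to capture translating ribosomes, and fragments of 25 to 35 nucleotides left after nuclease digestion were sequenced.

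The libraries differed in depth, with 343552 counts over all genes for replicate 1 and 120282 for replicate 2. Abundance was scaled to CPM (counts relative to the TMM-scaled library size), and 1 count equalled 2.71 CPM in the deeper library and 8.93 CPM in the other. The brain label was checked against marker genes. All 6 neuron markers, such as Stmn2 and Snap25, passed the filter of a mean of 10 counts and held 0.728% and 0.743% of gene counts in replicates 1 and 2, and the 4 markers of astrocytes and radial glia held 0.267% and 0.261%. The 3 markers of the oligodendrocyte lineage held 0.035% and 0.034%, and the 4 globin genes of blood 0.408% and 0.384%. Alb, Apoa1, Ins2 and Umod, which mark other organs, had 0 counts in both libraries, Myh2 had 3 and 0, and Acta1, a muscle actin with close relatives among the actins of brain, had 70 and 22. Whether fragments of other actins were counted on Acta1 was not tested.

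The 88 genes together had 2467 counts in the first library and 737 in the second. This was 0.718% of gene counts (95% Wilson interval 0.690 to 0.747) in replicate 1 and 0.613% (0.570 to 0.658) in replicate 2, or 0.665% ± 0.0745 (SD, n = 2), with intervals that did not overlap. Of the counts on protein-coding genes alone, which numbered 279531 and 87925, the members held 0.883% (0.849 to 0.918) and 0.838% (0.780 to 0.901), or 0.860% ± 0.0314 (SD, n = 2), and these intervals overlapped. All intervals cover counting error only, since each rests on the counts of 1 library and treats them as independent. Reads were not collapsed by molecular identifiers, which the intervals do not allow for. Whole brain was sampled in bulk, so fewer cells of a type and fewer footprints per cell cannot be told apart for any value below.

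Of the 88 genes 40 (45.5%) passed the filter of a mean of 10 counts. A further 34 genes had 1 to 19 counts in sum over both libraries, and 14 had none. The counts were concentrated in few genes: the 10 members with the most counts held 44.5% and 44.1% of all member counts in replicates 1 and 2, and the top 20 held 69.4% and 67.8%. Filter passage depended on depth, and 49 members reached 10 counts in replicate 1 against 25 in replicate 2.

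Levels were compared between genes as footprint density, in CPM per kilobase of coding sequence of the isoform with the highest count. Counts cover the whole transcript, so fragments in untranslated regions enter the density, and no mRNA level was measured beside the footprints. Among the 40 members past the filter the mean density ran from 59.5 for Rab12 to 626 for Arf1, a 10.5-fold range, with a median of 212. The median over 4294 protein-coding genes past the same filter was 62.3, but these genes had a median coding length of 1398 nucleotides against 607.5 for the members, and a short gene needs a higher density to pass. No member was among the densest 1% of these genes, 3 (Arf1, Rab6b and Rab3a) were among the densest 5% and 13 among the densest 10%.

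A comparison at like length did not rest on the filter. Of 74 members whose coding sequence was 500 to 750 nucleotides long, 14.9% had no count, and the median density was 64.7. Of 2749 other protein-coding genes in that length range 44.0% had no count, and the median density was 4.24. In the same range 38 members (51.4%) and 448 other genes (16.3%) passed the filter, and among those the median densities were closer, at 212 and 136. These values are descriptions of the list, with no test.

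**Figure D1:**
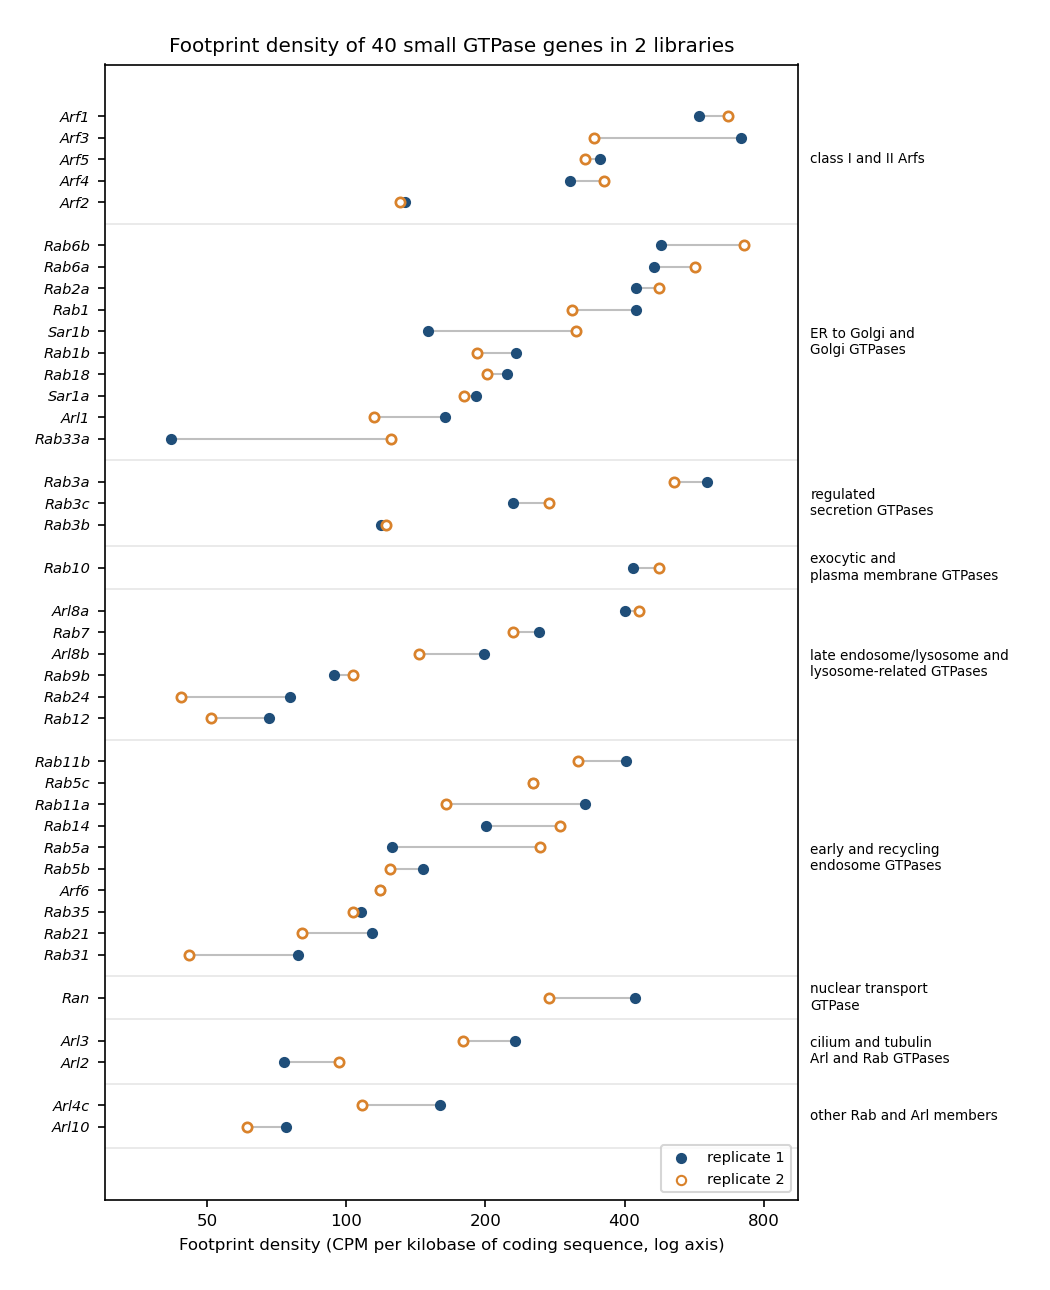
Footprint density (CPM per kilobase of coding sequence, log axis) of the 40 members with a mean of at least 10 counts, in replicate 1 (filled points) and replicate 2 (open points), grouped by role and ordered by mean density. Arf1, Rab6b and Rab3a have the highest means, the points of Rab5c and of Arf6 coincide, and the widest gaps belong to Rab33a, Sar1b, Rab5a and Arf3.

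The GTPases of the early secretory route held the largest share of member counts. The 20 genes of the endoplasmic reticulum to Golgi and Golgi group had 675 and 243 counts, or 27.4% and 33.0% of member counts in replicates 1 and 2, and 10 of them passed the filter with a median density of 222. Rab6b and Rab6a, which act in traffic at the Golgi and from the Golgi to the endoplasmic reticulum and of which Rab6b is enriched in neurons, led this group per coding length. Rab6b had 111 and 51 counts, a density of 479.8 in replicate 1 and 726 in replicate 2 (603 ± 174, SD, n = 2). Rab6a had 107 and 40 counts and densities of 462 and 569.7 (516 ± 75.8). On the isoforms of highest count, Rab6b was the denser of the pair in both libraries by a ratio of 1.04 in replicate 1 (exact 95% interval 0.788 to 1.37) and 1.27 in replicate 2 (0.826 to 1.98), and both intervals include 1. Another Rab6a isoform with 627 coding nucleotides had 95 and 23 counts, which the ratio leaves out. The other Rab6b isoform was noncoding, with 51 and 23 counts. Per kilobase of the whole transcript, Rab6b and Rab6a stood at 75.5 and 101, below Rab2a at 135 and Sar1b at 115 of the same group.

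Rab2a, which acts between the endoplasmic reticulum and the Golgi, had 100 and 34 counts and densities of 424 and 475 (449.6 ± 36.1). Its paralogue Rab2b had 8 and 2 counts on its representative isoform. Against it Rab2a was denser by a ratio of 12.7 (6.22 to 30.3) in replicate 1 and 17.3 (4.44 to 149) in replicate 2. Rab2a had only 1 annotated isoform, whereas Rab2b had others that the ratio leaves out. Among these, Rab2b-002 had 7 and 2 counts and Rab2b-004 had 8 and 2. Rab1, which the name table lists as Rab1a, and Rab1b carry vesicles from the endoplasmic reticulum into the Golgi. Rab1 had 95 and 21 counts and densities of 423 and 308 (365 ± 81.2), and Rab1b had 52 and 13 counts and densities of 233 and 192 (212 ± 29.0). Rab1 lay above Rab1b in both libraries, with a ratio of 1.82 (1.28 to 2.60) in replicate 1 and 1.61 (0.768 to 3.49) in replicate 2, where the interval includes 1. With the isoform of longest coding sequence the ratio was 1.395 (0.966 to 2.03) in replicate 1, so that this interval includes 1 too.

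Sar1a and Sar1b start the COPII coat at exit sites of the endoplasmic reticulum. Sar1b had 33 and 21 counts and densities of 149.8 and 314 (232 ± 116). Sar1a had 42 and 12 counts and densities of 191 and 179 (185 ± 7.89). The order of the pair differed between the libraries, with Sar1b over Sar1a at 0.786 (0.483 to 1.27) in replicate 1 and 1.75 (0.822 to 3.90) in replicate 2, and neither interval excludes 1. Rab18, a regulator of lipid droplets and of the endoplasmic reticulum, and Arl1, which recruits golgins to the trans-Golgi, had mean densities of 212 and 139. Rab33a, a Golgi and secretory vesicle Rab, was the least dense of the group past the filter, with 11 and 10 counts and densities of 41.8 and 125 (83.4 ± 58.9).

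All 5 class I and class II Arf genes passed the filter, with 420 and 112 counts in sum (17.0% and 15.2% of member counts) and a median density of 342. Arf1, which recruits the COPI coat, clathrin adaptors and lipid-modifying enzymes at the Golgi, had 117 and 41 counts and densities of 581 and 671 (626 ± 63.5), the highest mean of the 88 genes per coding length. Per kilobase of the whole transcript Arf1 stood at 172, below Rab3a at 272 and Rab11b at 176. The Rab11b value was that of an isoform of 924 nucleotides annotated as a target of nonsense-mediated decay, not of its full coding isoform. Arf3, a close relative of Arf1 at the trans-Golgi and endosomes, had 144 and 21 counts and densities of 715 and 343 (529 ± 263). Arf3 was the densest member in replicate 1 and lay below Arf1, Rab6b, Rab6a, Rab3a, Rab2a, Rab10, Arl8a and Arf4 in replicate 2. Arf2, the third class I Arf of the mouse, had 27 and 8 counts and densities of 134 and 131 (132 ± 2.24).

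Arf1 was denser than Arf2 by a ratio of 4.33 (2.83 to 6.85) in replicate 1 and 5.13 (2.37 to 12.7) in replicate 2. The ratio of Arf1 to Arf3 was 0.813 (0.631 to 1.04) in replicate 1 and 1.95 (1.13 to 3.48) in replicate 2, so the order of the densest class I genes was not the same in both libraries. The class II genes Arf5 and Arf4, which work with class I Arfs between the endoplasmic reticulum and the Golgi, were close to each other. Arf5 had 71 and 20 counts and densities of 354 and 329 (342 ± 18.0), and Arf4 had 61 and 22 counts and densities of 304 and 362 (333 ± 40.6). Their ratio of 1.16 (0.815 to 1.67) in replicate 1 and 0.909 (0.471 to 1.75) in replicate 2 spanned 1.

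Among the GTPases of regulated secretion, the Rab3 genes held nearly all counts. Rab3a, the main Rab of synaptic vesicles, had 148 and 38 counts, the most of any member in replicate 1, and densities of 605 and 512 (558 ± 65.9). Rab3c, also on synaptic vesicles, had 58 and 21 counts and densities of 229.8 and 274 (252 ± 31.4). Rab3b had 29 and 9 counts and a mean density of 120.4 ± 1.91, and Rab3d had 6 and 3 counts. Rab3a was denser than each of its relatives in both libraries: over Rab3c by a ratio of 2.63 (1.93 to 3.63) and 1.87 (1.07 to 3.35), over Rab3b by 5.08 (3.39 to 7.85) and 4.20 (2.00 to 9.89), and over Rab3d by 24.6 (11.0 to 68.0) and 12.6 (4.00 to 63.9). Rab27a, Rab27b and Rab26, which act in granule and vesicle secretion, had at most 2 counts in either library, and Rab37 had none.

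The early and recycling endosome group had 448 and 131 counts, or 18.2% and 17.8% of member counts, and 10 of its 17 genes passed the filter. Rab5 proteins govern fusion of early endosomes. Rab5c had 66 and 20 counts and densities of 253.7 and 253.3 (253.5 ± 0.265). Rab5a had 30 and 19 counts and densities of 125 and 262 (194 ± 96.4), and Rab5b had 35 and 9 counts and a mean density of 135 ± 15.8. Rab5c exceeded Rab5a in replicate 1 by a ratio of 2.02 (1.29 to 3.23) but not in replicate 2, where the ratio was 0.968 (0.490 to 1.92).

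Rab11a and Rab11b return cargo from recycling endosomes to the cell surface. Rab11a had 79 and 12 counts and densities of 329 and 165 (247 ± 116). Rab11b had 67 and 16 counts and densities of 403 and 318 (360.5 ± 60.8), but these lay on an isoform annotated as a target of nonsense-mediated decay with a coding sequence of 450 nucleotides. On its full coding isoform of 657 nucleotides Rab11b had 62 and 12 counts and densities of 262 and 167 (214.5 ± 66.7), so that the ratio of Rab11b to Rab11a moved from 1.23 to 0.778 (0.548 to 1.10) in replicate 1 and from 1.93 to 0.991 in replicate 2. A processed pseudogene, Rab11b-ps2, had 59 and 12 counts, nearly those of the full coding isoform, and which locus the fragments came from cannot be told apart. Rab14, of the trans-Golgi and early endosome, had 48 and 21 counts and densities of 201 and 289 (245 ± 62.7). Arf6, which acts at the plasma membrane and in endosomal recycling, had 23 and 7 counts and a mean density of 118 ± 0.239.

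Of 13 late endosome and lysosome genes 6 passed the filter, with 264 and 71 counts for the group. Arl8a and Arl8b link lysosomes and synaptic vesicle precursors to kinesin. Arl8a had 83 and 27 counts and densities of 401 and 429.8 (415 ± 20.4), and Arl8b had 41 and 9 counts and a mean density of 171 ± 38.7. Arl8a was denser in both libraries, by a ratio of 2.02 (1.38 to 3.02) and 3.00 (1.37 to 7.25). Rab7, the main Rab of late endosomes, had 60 and 16 counts and densities of 261 and 229 (245 ± 22.4).

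In the exocytic group of 4 genes only Rab10, which acts in the delivery of membrane to the cell surface and to axons, passed the filter. It had 93 and 32 counts and densities of 418 and 474 (446 ± 39.5). Its relatives Rab8a and Rab8b stayed below the filter. Ran, which gives nuclear transport its direction, had 101 and 20 counts and densities of 420.4 and 274 (347 ± 103). In the cilium and tubulin group, Arl3, which releases lipid-modified cargo in the cilium, had 47 and 11 counts and densities of 232 and 179 (205 ± 37.5), and Arl2, a regulator of tubulin folding, had 15 and 6 counts. Arl4c, which acts at the plasma membrane, led the remaining 13 genes with 34 and 7 counts and densities of 159 and 108 (134 ± 36.2).

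**Figure D2:**
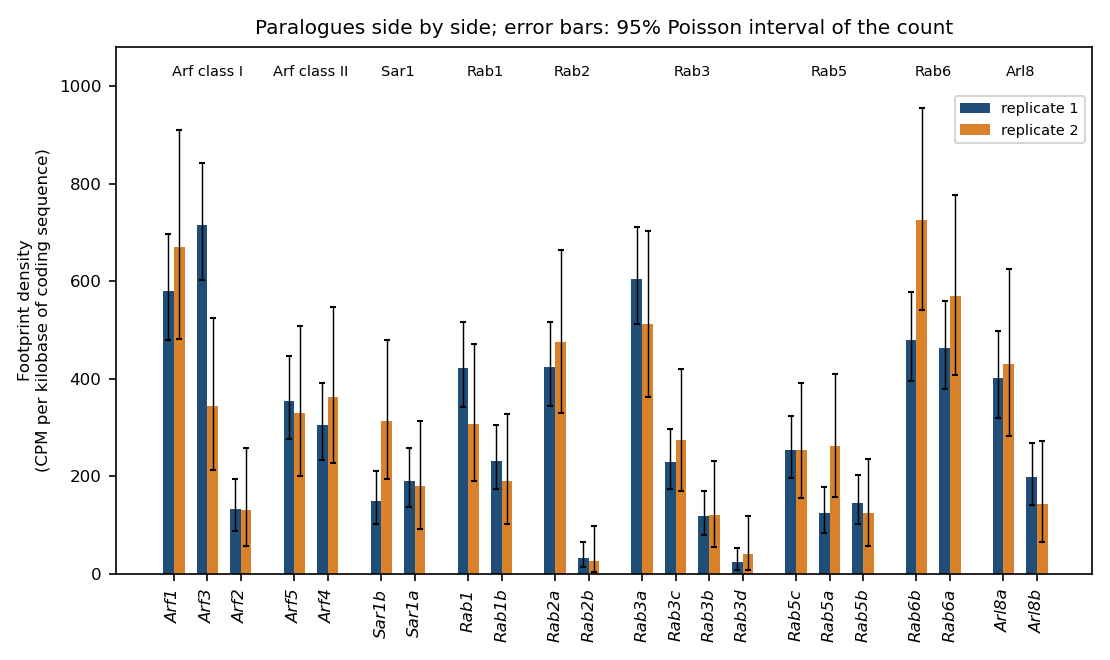
Footprint density (CPM per kilobase of coding sequence, linear axis from 0) of paralogous members in replicate 1 (blue bars) and replicate 2 (orange bars), with 95% Poisson intervals of each count as error bars. Arf1 and Arf3 over Arf2, Rab2a over Rab2b, Rab3a over Rab3b, Rab3c and Rab3d, and Arl8a over Arl8b keep their order in both libraries. The means of Rab1 over Rab1b, Rab6b over Rab6a, Rab3c over Rab3b and Rab5c over Rab5b also have the same order in both libraries. For each of these pairs the exact 95% interval of the ratio includes 1 in replicate 2, and for Rab6b over Rab6a in replicate 1 too. Arf1 and Arf3, Sar1a and Sar1b, Arf4 and Arf5, and Rab5a with each of Rab5b and Rab5c exchange places.

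In all, 23 pairs of paralogues were compared by density in each library, without adjustment for their number. Each gene entered with 1 isoform, so counts on its other isoforms are left out of the ratios. Ratios with isoforms summed were not computed, and the order of a pair may differ there. In 7 pairs the exact interval of the ratio lay on the same side of 1 in both libraries, namely Arf1 and Arf3 over Arf2, Rab2a over Rab2b, Rab3a over Rab3b, Rab3c and Rab3d, and Arl8a over Arl8b. With the isoform of longest coding sequence the number was 8, with Rab3c over Rab3b added. Rab3c had only 1 annotated isoform, whereas Rab3b had coding isoforms with 29 and 9, 30 and 8, and 25 and 11 counts. No pair had intervals on opposite sides of 1. Near-identical stretches of paralogues can share fragments, and how fragments with several matches were counted is not given in the sources used here. The part of shared fragments in these ratios was not tested.

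Along the order of the 40 members by density, 35 of 39 neighbouring pairs had overlapping ranges over the replicates. The clearest step was between Arf4, with a lowest value of 304, and Rab5c, with a highest value of 253.7. The other 3 steps without overlap, from Arf2 through Rab3b and Arf6 to Rab35, were between genes whose densities lay between 103 and 134. Across the 40 genes the libraries ranked abundance in CPM with a Spearman rho of 0.873 and a Pearson r of 0.857 on log2(CPM + 1), and density with a rho of 0.892. These are descriptions across genes, which are not independent replicates and differ in length and depth.

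The 14 members with 0 counts in both libraries were Arl5c, Arl9, Arl11, Arl13a, Arl14, Rab17, Rab19, Rab20, Rab25, Rab32, Rab37, Rab38, Rab39 and Rab44. Several of these are known from other cell types, such as Rab17 and Rab25 from epithelia and Rab32 and Rab38 from pigment cells. A count of 0 allows up to 0.00087% of gene counts in replicate 1 and 0.0025% in replicate 2, so lower levels were not detectable at this depth. A further 7 genes (Rab42, Rab29, Rab43, Rab28, Arl16, Rab7b and Rab27a) had counts on their representative isoform in replicate 1 only, between 1 and 6, and no member had them in replicate 2 only. Another coding isoform of Rab43 had 0 and 1 counts. Of the members below the filter with counts in both libraries, Rab8b came nearest to it with 16 and 3 counts, followed by Arl5a, a trans-Golgi GTPase, with 11 and 7, and Rab8a with 14 and 4.

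With 1 group, the only contrast was between the replicates. The 40 members were tested within a fit over 5436 genes past the filter, by a 2-sided exact binomial test of the counts with Benjamini-Hochberg adjustment at 0.05; the p-values cover counting error and compare these libraries, not conditions. Of the 40 members 1 (2.5%) passed, Arf3, against 4.14% of all genes tested and 0.956% of the 4392 protein-coding genes among them. Arf3 was lower in replicate 2, a direction in which 0.147% of all genes and 0.137% of protein-coding genes passed, while no member and 3.99% of all genes passed in the other direction. Its 144 and 21 counts were 390.2 CPM in replicate 1 and 188 CPM in replicate 2, which gave a log2 ratio of -1.05 (standard error 0.34, from counting) and an adjusted p of 0.0236 in the exact binomial test with Benjamini-Hochberg adjustment. When a coefficient of variation of 0.2 between libraries was allowed for in edgeR, no member passed (2.41% of all genes did), and the adjusted p of Arf3 was 0.957. When only protein-coding genes were normalised and tested, none passed either (0.501% of those genes did), and its adjusted p by the exact binomial test was 0.137.

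At an unadjusted p of 0.05 in the exact binomial test, 6 of the 40 members (15%) differed, against 9.6% of all genes and 5.62% of protein-coding genes. Rab6b, Rab5a, Sar1b and Rab33a were the higher ones in replicate 2, with log2 ratios of 0.60, 1.05, 1.06 and 1.55, and Arf3 and Rab11a the lower ones, at -1.05 and -0.99. Apart from Arf3, their adjusted p-values in the exact binomial test with Benjamini-Hochberg adjustment lay between 0.180 (Sar1b) and 0.345 (Rab11a). The median log2 ratio of the 40 members was -0.097, against 0.0041 over all genes tested and -0.016 over protein-coding genes. There were 16 members above 0 and 24 below, and 36 of the 40 lay within 1 log2 unit of 0. With library totals 30 members lay below 0, while the median of all genes moved to -0.20, and the median of the members turned to 0.058 when the filter was set to 50 counts, which 10 members passed. Counting alone gave the ratios standard errors from 0.24 to 0.87, with a median of 0.44.

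**Figure D3:**
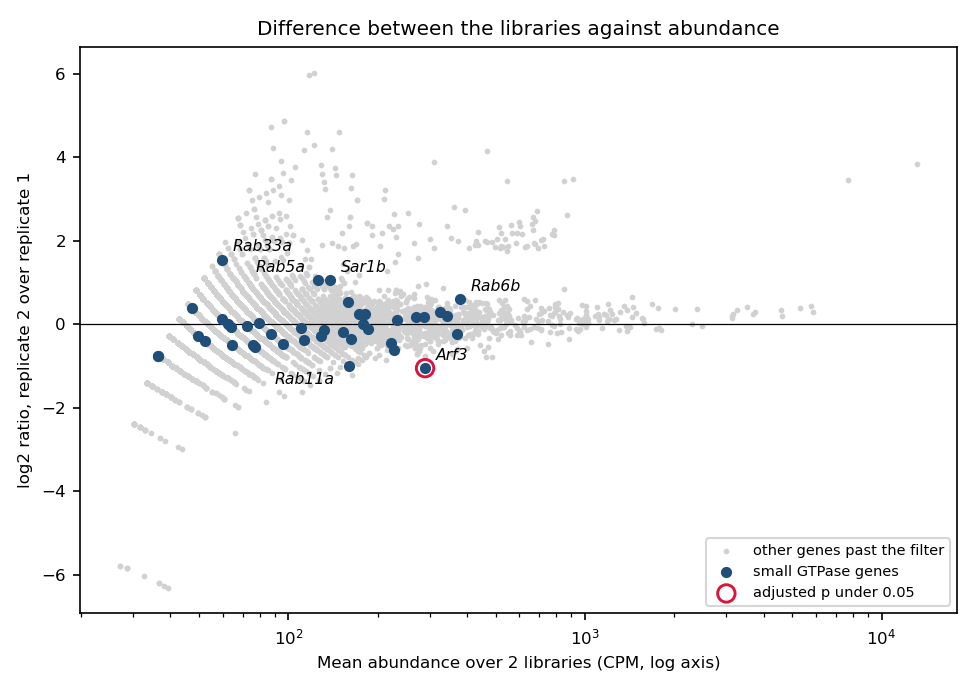
Log2 ratio of replicate 2 over replicate 1 (log2(CPM + 1) scale) against mean abundance (CPM, log axis) for the 40 members (dark points) and all other genes past the filter (grey). The 6 named genes have an unadjusted p under 0.05 in the exact binomial test, and Arf3 (red ring) has an adjusted p of 0.0236.

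Isoform counts bear on how each gene value is read. Of the 88 genes 29 had 1 annotated isoform and 59 had more, up to 11 for Rab14. Counts summed over all isoforms were 5477 for replicate 1 and 1550 for replicate 2, which is 2.22 and 2.10 times the counts of the representative isoforms. Whether 1 fragment was counted on several isoforms is not given in the sources used here. In 9 of the tested members several coding isoforms had the same coding length and untranslated regions of different length; their coding sequences were not compared. The 4 such isoforms of Rab3a had between 127 and 148 counts in replicate 1 and between 28 and 38 in replicate 2. The pair of Arf1 had 117 and 107 counts in replicate 1 and 41 and 30 in replicate 2, with the larger counts on the isoform with a leader of 323 rather than 134 nucleotides.

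Arf3 had 3 isoforms, and the lower level in replicate 2 was seen on each in CPM. The full coding isoform had 144 and 21 counts, a short coding isoform 43 and 10, and a noncoding processed transcript of 405 nucleotides 36 and 4. The short coding isoform stood at 116.5 CPM in replicate 1 and 89.3 CPM in replicate 2, a small step for these counts. Isoforms may share fragments, so the 3 values are not separate measurements. Among the tested members 18 had a noncoding isoform, and the best of these carried a median of 28.8% of the count of the representative. When isoforms were summed, 55 members passed the filter. Of these 55, 4 passed the exact binomial test with Benjamini-Hochberg adjustment, a share near the 7.23% of 8366 genes that did. Arf3 and Rab11a were lower in replicate 2 (2.65% of genes passed in that direction), and Rab14 and Rab6b were higher. Where a fragment enters on several isoforms, summing counts it repeatedly and the p-values are too small. Where it enters on 1 isoform only, the representative leaves out part of the counts of a gene, and its density is too low. For Rab7, for example, the representative had 60 and 16 counts and another coding isoform 61 and 15. Which of the 2 cases holds was not tested.

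**Figure D4:**
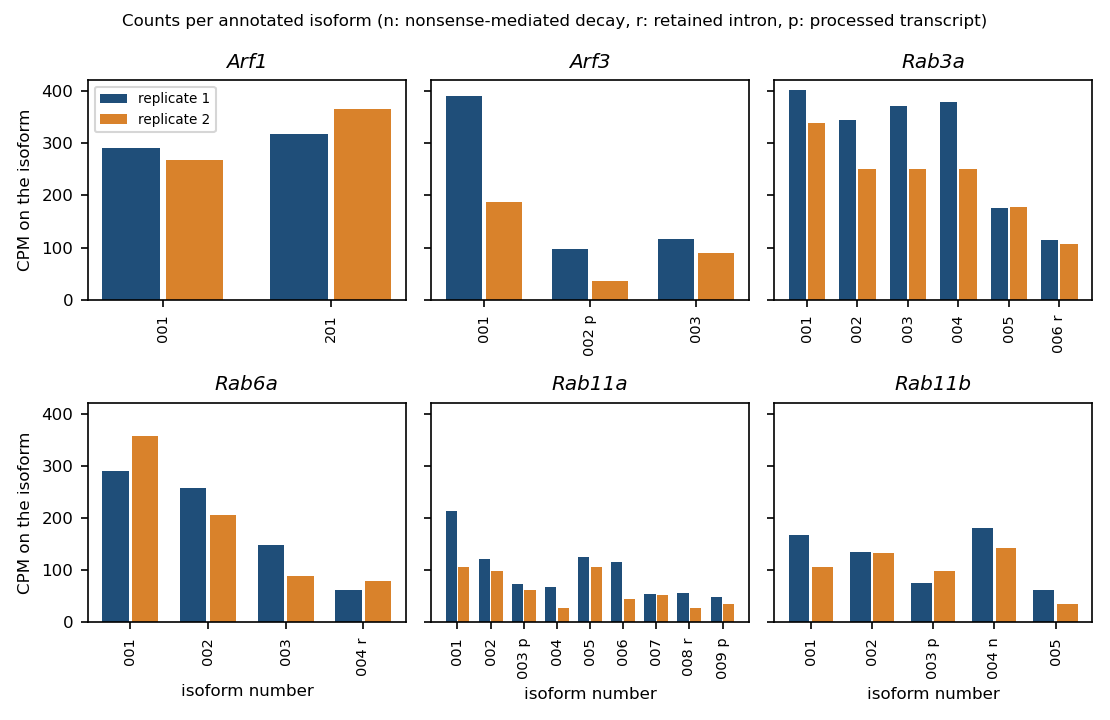
Abundance in CPM of each annotated isoform of Arf1, Arf3, Rab3a, Rab6a, Rab11a and Rab11b in replicate 1 (blue) and replicate 2 (orange), with letters marking noncoding and nonsense-mediated decay isoforms. The 4 Rab3a isoforms of equal coding length stand at similar heights, and all 3 Arf3 isoforms are lower in replicate 2.

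The regulators and effectors of these GTPases were described from 8 lists with 215 genes, of which 214 were in the table and 101 passed the filter. None of the 101 passed the exact binomial test with Benjamini-Hochberg adjustment, against 4.14% of all genes and 0.956% of protein-coding genes. None passed the edgeR test with a preset coefficient of variation either, against 2.41% of all genes. At an unadjusted p under 0.05 in the exact binomial test there were 2 of the 101 genes, against 9.6% of all genes and 5.62% of protein-coding genes. Their median log2 ratio was -0.022, and their median density 29.2 at a median coding length of 2572.5 nucleotides, so their densities are not at like length with those of the GTPases.

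Of 7 genes that prenylate Rabs or move them between membranes and cytosol 4 passed the filter. Rabac1, a prenylated Rab acceptor, had 73 and 23 counts and densities of 355 and 368 (361 ± 9.57). Among 42 Rab exchange factors 13 passed, led by the TRAPP subunits Trappc3 (40 and 5 counts, 141 ± 83.0) and Trappc4 (33 and 10 counts, 135.4 ± 0.142). Among 39 Rab GTPase-activating proteins 14 passed, with Tbc1d16 at 51.9 ± 3.44 and Tbc1d13 at 41.7 ± 14.4. Of 37 genes on the Rab effector list 11 passed, with the synaptic proteins Rims4 at 94.1 ± 38.4 and Rph3a at 59.2 ± 8.83.

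On the Arf side 8 of 16 exchange factors passed, led by Psd (62.9 ± 6.91) and Cyth2 (50.6 ± 8.35), which load Arf6 and other Arfs at the plasma membrane. Of 23 Arf GTPase-activating proteins 12 passed, led by Adap1 (108 ± 7.09) and Agap2 (93.0 ± 7.36). The COPI and COPII coats, which assemble on Arf1 and Sar1, had 15 of 21 genes past the filter, led by the COPI subunits Copz1 (123 ± 15.6) and Copg1 (77.7 ± 4.02). The Ran list had 24 of 29 genes past the filter. Rangap1, which stimulates GTP hydrolysis by Ran, had 97 and 29 counts and a density of 147 ± 1.56, while the value of 314 ± 150.2 for Tnpo3, an import receptor, came from a nonsense-mediated decay isoform with a coding sequence of 129 nucleotides and was 16.7 ± 0.338 on its full coding isoform.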

How the data were processed

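Active ribosome profiling was measured in 2 libraries of 1 group. The authors deposited whole-number counts of fragments per transcript, not normalised, with transcript and coding lengths, per the file headers. The submitters' processing notes name Trimmomatic 0.36, Bowtie2 2.2.6, SAMtools and the build GRCm38.p4; the counting tool, the annotation release, any filter on ribosomal RNA and the handling of fragments with several matches are not given in the sources used here. Gene totals were 343552 and 120282 counts.

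Each gene took the count of the transcript whose count summed over both libraries was highest. The members and lists were chosen with earlier results of these data known. All 88 members were matched by identifier to the name table, 87 under the same symbol. CPM were computed with edgeR 4.0.16 (R 4.3.3, TMM factors 1.07 and 0.931) with a filter at a mean of 10 counts, and log2 ratios on log2(CPM + 1), which understates changes of low genes. With 1 group and 2 libraries, a 2-sided exact binomial test on all 5436 genes with Benjamini-Hochberg adjustment at 0.05 compared the libraries; its p-values and the intervals cover counting error only, and no spread between animals was estimated. The script was tested on simulated data. DESeq2 1.42.0 size factors were an alternative, as were library totals, other count filters, a preset coefficient of variation of 0.2, thinning of replicate 1, other isoform choices, protein-coding genes only, another pseudocount and leaving out a replicate.

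Named members were the 20 densest past the filter, every member past the threshold, the densest of each role list and the highest and lowest log2 ratio; of each pathway list the 2 densest genes past the filter and any past the threshold were named, except 1 that is not reported here. Other members named in the report were chosen after their values were seen. Paralogues were to be grouped at 80% protein identity; protein sequences were not used here, so they were grouped by symbol, a choice made after the table was seen. Ratios of paralogues, isoform values and the length range were also added then.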

Additional observations from a re-analysis of the deposited data

How the results depend on the processing

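The median log2 ratio of the members was -0.097 and changed sign when the filter was set to 50 counts (0.058), with replicate 1 thinned to the depth of replicate 2 (0.0016) and with isoforms summed (0.014). It was -0.30 with library totals, which moved the median of all tested genes to -0.20, and -0.22 without a filter, where that median was -0.25. Members past the filter numbered 10 at a mean of 50 counts, 74 without a filter, and 25 to 49 when either replicate was left out. Members called numbered 0 with the preset coefficient of variation and 0 with protein-coding genes only (0 lower in each). With isoforms summed 4 of 55 members past the filter were called (2 lower, 2 higher). Arf3 was the 1 member called in the other 6 settings. The share of counts was 0.860% of protein-coding counts. The order by density correlated with the reported one at a rho of 0.800 per transcript length and 0.850 with isoforms summed, and at 0.960 to 0.973 when either replicate was left out. Ratios of named genes near 0 changed sign as follows. With library totals Rab2a was -0.042, Rab10 -0.025 and Arl8a -0.11. Without a filter Rab2a was -0.012 and Arl8a -0.075. With replicate 1 thinned Arl8a was -0.12, Rab7 0.0016 and Rab1b 0.28. Rab5c was 0.027 with isoforms summed, 0.0016 with the longest coding isoform and 0.016 with protein-coding genes only. The causes were not tested. Depth limits the values most in replicate 2, where 1 count was worth 8.93 CPM. No paired analysis was possible because both libraries belong to a single group.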

Other observations

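Small GTPases of other families were set beside the members after their values were seen, with densities again in CPM per kilobase of coding sequence. Cdc42, which organises actin at the growing neurite, had 134 and 42 counts and densities of 630.5 and 651 (641 ± 14.6, SD, n = 2), above the mean of Arf1. Rac1 had 77 and 36 counts and a density of 458 ± 138, and Rhoa 79 and 23 counts and 360.4 ± 10.6. Rheb, the activator of mTORC1, stood at 217 ± 10.9, Rap1b at 163 ± 3.62, Rap2a at 120.4 ± 10.2 and Rit2 at 100.2 ± 12.8. Nras had 12 and 3 counts and Rap1a 11 and 3, both below the filter.

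Genes with names close to those of the members were also read out, besides the pseudogene Rab11b-ps2 with its 59 and 12 counts. Trim23, a larger protein with an Arf domain, had 25 and 7 counts. Rabl6 had 12 and 0 counts, Rabl3 had 6 and 0, Arfrp1 had 3 and 0, and Rabl2 had 1 and 0. The counts of Rabl3, Arfrp1 and Rabl2 lay on isoforms annotated as targets of nonsense-mediated decay. Rasl2-9, a Ran-like gene, had 17 and 4 counts on a coding sequence of 651 nucleotides, the length of that of Ran. The antisense genes Rab10os and Rab26os had 5 and 0 and 3 and 0 counts. Arl4aos, also antisense, and Arf4os, annotated as protein-coding with 357 coding nucleotides, had none in either library.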
